A study of Rattus norvegicus with 2 samples.

Results

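The 10 genes Hspa1a, Hspa1b, Hspa8, Hsph1, Dnajb1, Bag3, Hsp90aa1, Hspb1, Hspd1 and Hspe1 encode heat shock proteins and co-chaperones, and they were taken, with all of their probes, from the 36174 gene names carried by the arrays. They were represented by 19 probes. Expression was measured in cervical lymph nodes of male Sprague-Dawley rats, 10 to 12 weeks old, on 1 array of the control group without stress (C) and 1 array of the group under restraint stress (RS). In the RS group the animals were held on their backs on a board, and the paper sets this array in its group restrained for 30 min, a time that the labels do not give. Per the study's methods, animals were put under halothane after the stress period and killed with pentobarbital, and the nodes were then taken. With 1 array per group there was no replicate and no test. How many rats gave the RNA of an array is not given in the sources used here. The scan time in the headers of both arrays is earlier than the period the paper gives for its experiments, and the scanner named there is another model than in the methods, so that strain, age and restraint are given as the labels and the paper state them and were not checked otherwise.

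Heat shock proteins are chaperones that bind unfolded proteins and help them to fold. HSP70 proteins take up and release their clients in a cycle driven by ATP, J-domain proteins such as DNAJB1 start the cycle, and nucleotide exchange factors such as BAG3 and HSPH1 reset it. In stressed cells the heat shock factor HSF1 binds repeated units of the letters GAA and TTC, the heat shock elements, in front of the inducible members of the family. Hspa1a and Hspa1b are the classical inducible genes, and Hspa8 encodes the HSP70 that cells hold at all times.

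Only Hspa1a was higher by 2-fold or more on the RS array, by 21.6-fold, among the 9 of the 10 genes whose signal stood well above background on 1 array or both. That is 1 of 9 genes, compared with 3.46% of the 21096 genes screened in this way. None of the 9 was lower by 2-fold or more, compared with 4.28% of all genes. The other 8 differences lay between 0.14 and 0.97 on the log2 scale. Thus 9 of 9 genes lay above 0, compared with 52.1% of all genes, and their median log2 difference was 0.37 beside 0.02 for all genes. All 9 genes were well above background on both arrays by the probe that stood for them, and Hspa1b was so on neither array.

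The promoter letters of the family are shown first, because heat shock elements are the feature these genes are known to share. RefSeq windows of 300 bases, with 250 before and 50 after the annotated start in the GRCr8 assembly, were held for 8 of the 10 genes, the exceptions being Hspa1b and Hsp90aa1. On both strands, 2 pairs of units were searched, GAANNTTC and TTCNNGAA, each of which reads the same on either strand. A run of 3 units is one pair of each kind that overlap in 1 unit, in either order. In the lines that follow, the letters of every such pair are in capitals.
Hspa8 chr8:50080294-50080480, forward strand: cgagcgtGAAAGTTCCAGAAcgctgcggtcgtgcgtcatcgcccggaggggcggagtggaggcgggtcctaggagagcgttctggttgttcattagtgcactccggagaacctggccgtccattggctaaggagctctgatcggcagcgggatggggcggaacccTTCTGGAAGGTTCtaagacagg
Hspe1 chr9:64084256-64084285, forward strand: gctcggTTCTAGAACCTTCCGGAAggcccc
Hsph1 chr12:10427253-10427352, forward strand: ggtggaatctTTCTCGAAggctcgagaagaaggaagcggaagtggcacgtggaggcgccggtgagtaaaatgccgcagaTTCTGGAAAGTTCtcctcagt
Hspb1 chr12:26432387-26432446, reverse strand: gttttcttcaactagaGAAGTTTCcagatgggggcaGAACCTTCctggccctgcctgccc
Bag3 chr1:192533300-192533359, forward strand: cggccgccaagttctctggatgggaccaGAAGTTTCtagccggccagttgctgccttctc
Dnajb1 chr19:41431142-41431181, reverse strand: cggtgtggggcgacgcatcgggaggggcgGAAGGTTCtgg

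A run of 3 units was found in 4 of the 8 windows, those of Hspa8, Hsph1, Hspd1 and Hspe1, compared with 0.798% of all 33469 promoter windows. The window of Hspa8 held 2 separate runs, starting at positions -213 and -55 from the annotated start. Hspd1 and Hspe1, which encode the mitochondrial chaperonin HSP60 and its lid HSP10, lie head to head. Both windows held the same stretch, chr9:64084262-64084279, with 2 runs of 3 units that overlap. At least 1 pair of units was found in 7 of the 8 windows, compared with 15.9% of all windows. The exception was Hspa1a, whose window held neither a pair nor the letters TATAAA. The latter were in 0 of the 8 windows and in 14.2% of all windows. No match says only that these letters are not in this window. Whether the annotated start of Hspa1a is the one its transcripts use was not examined, so that the window may miss its promoter.

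**Figure D1:**
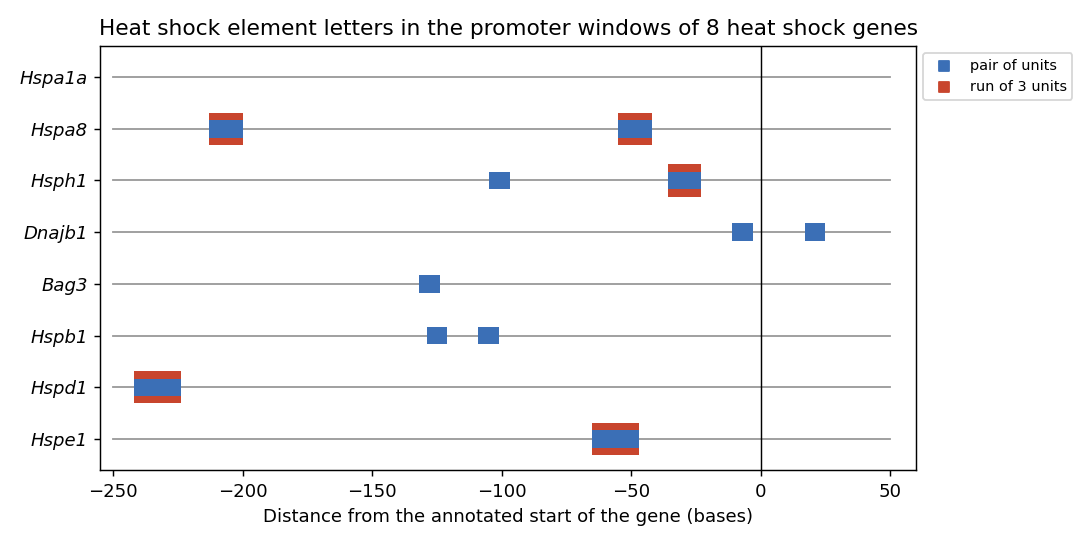
Positions of heat shock element letters in the RefSeq promoter windows of 8 heat shock genes, by distance in bases from the annotated start. Narrow blue blocks are pairs of units and taller red blocks are runs of 3 units; 4 windows hold a run and the Hspa1a window holds no block.

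Hspa1a, which encodes the inducible HSP70, was measured by 2 probes. The probe at position 3753 of the transcript, which the files do not place on the genome, gave intensities of 46.1 (C) and 931 (RS). Both signals were well above background. After subtraction of the 75th percentile of each array, these were normalized log2 signals of -2.03 and 2.40. RS exceeded C by 4.43 on the log2 scale (spot error 0.21). Here and below, intensities are given before this subtraction, and folds and log2 differences after it. The spot error combines the spot errors that the scanner software reports and covers no difference between rats.

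By size, Hspa1a ranked 7 among the increases of 21086 genes and 3 among the 19214 genes measured on both arrays. Its second probe, at position 2300, lies at chr20:3956838-3956897 (forward strand) on rn4, the build named in the files. It read 7.26 in C, not well above background, and 32.6 in RS, where it was. Against an intensity of 9.45, the dimmest that counted as well above background in C, Hspa1a was at least 3.69-fold higher by this probe (1.88 on the log2 scale, spot error 0.49). Both probes were thus past 2-fold in the same direction, and since the second value is a lower bound, their sizes were not compared. Normexp background correction gave a log2 difference of 3.34 for the probe at position 3753.

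Hspa1b, the neighbouring copy that encodes a nearly identical HSP70, had 1 probe, at chr20:3959493-3959552 (forward strand). The files place it at position 5858 of the transcript, further along than either Hspa1a probe. It read 2.30 in C and 2.15 in RS. Neither signal was well above background, so that no fold is given for Hspa1b. Whether this probe reads the Hspa1b transcript was not examined, so its dim signal does not show that Hspa1b was silent. No probe of another gene name shared 20 bases in a row with either Hspa1a probe or with the Hspa1b probe. Transcripts of both copies could bind the probe at position 2300 where their letters are the same, and this could not be examined without their sequences.

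The letters of 5 probes are given, those that each read through at least 1 frame without a stop, since the value of a gene here is that of a 60-base stretch of its transcript. They stand in the sense direction and were read from the deposited files.
Hspa1a, position 2300: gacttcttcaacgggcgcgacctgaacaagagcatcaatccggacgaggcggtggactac
Hspa8, position 523: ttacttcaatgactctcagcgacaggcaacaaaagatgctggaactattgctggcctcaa
Hsph1, position 2410: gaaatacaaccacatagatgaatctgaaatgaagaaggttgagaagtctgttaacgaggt
Hsp90aa1, position 436: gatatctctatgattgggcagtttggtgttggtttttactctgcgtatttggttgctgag
Hspb1, position 529: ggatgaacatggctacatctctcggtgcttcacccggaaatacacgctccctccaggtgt
The GC content of these probes ran from 36.7% for Hsph1 to 58.3% for Hspa1a. The printed probes of Hspa1a and Hspa8 were not the ones that stood for these genes, which were those at positions 3753 and 2019. The probe of Hspa1a at position 3753, the one measured on both arrays, had a GC content of 35.0%.

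**Figure D2:**
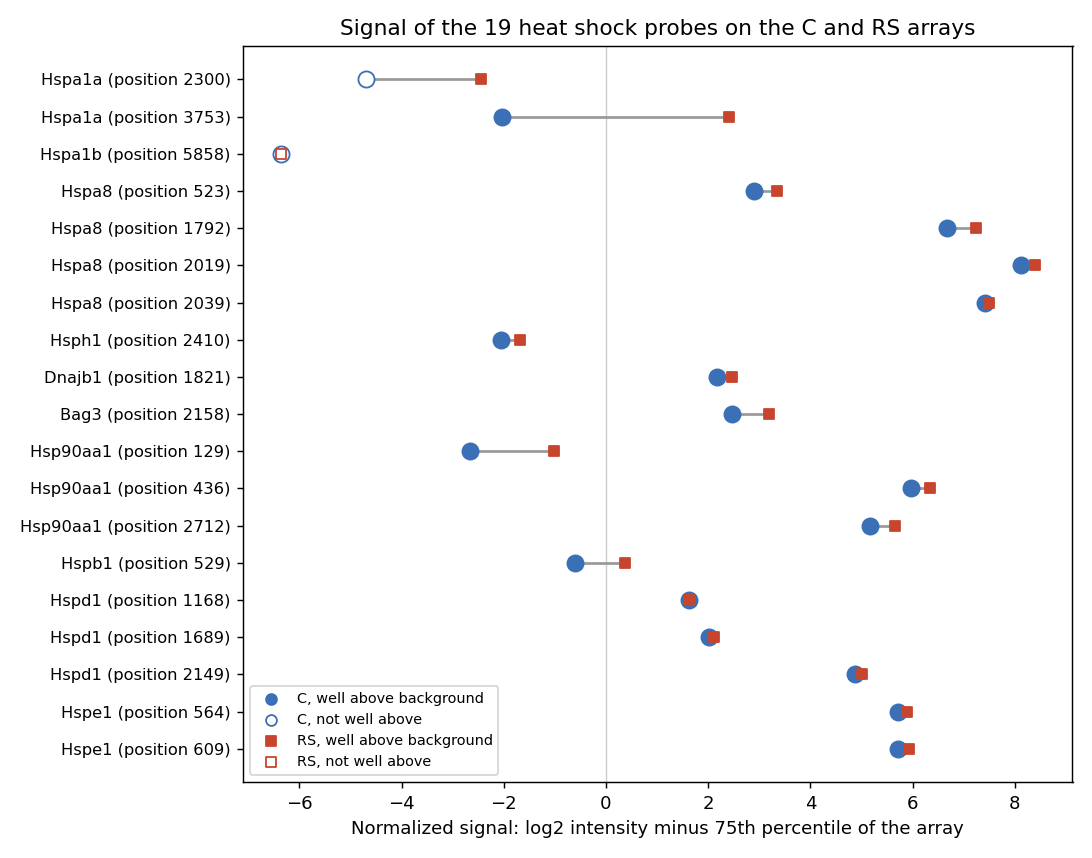
Normalized signal (log2 intensity after subtraction of the array's 75th percentile) of all 19 probes on the C array (circles) and the RS array (squares), with the position of each probe in its transcript; open symbols are not well above background. The line is long for both Hspa1a probes and the Hsp90aa1 probe at position 129, and shorter for the other probes.

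Hspa8, the constitutive HSP70, was measured by 4 probes on chromosome 8. The brightest, from 43787677 to 43787736, read 52440 in C and 59294 in RS, which differ by 0.28 on the log2 scale (spot error 0.20). The other 3 gave log2 differences of 0.09, 0.45 and 0.56. The lowest value, 0.09, came from a probe that shares 40 bases with the brightest one. All 4 were above 0 and under 2-fold. The probe with 0.56 shares at least 20 bases in a row with a probe of another transcript, and its value is uncertain as a value of Hspa8.

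On the log2 scale the inducible Hspa1a thus differed by 4.43 between the arrays and the constitutive Hspa8 by 0.28. Hsph1, an HSP110 that exchanges the nucleotide of HSP70, read 45.5 in C and 54.8 in RS, a log2 difference of 0.37 (spot error 0.22). It was read from 1 spot at chr12:5809732-5809791 (forward strand). Dnajb1, the J-domain partner of the inducible HSP70, went from 847 to 976, or 0.30 on the log2 scale (spot error 0.20), by a probe at chr19:26214035-26214094 (reverse strand). Neither gene differed by more than 2 spot errors.

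Bag3, which joins HSP70 to small heat shock proteins and to autophagy, was printed in 2 spots. Their intensities were 977 and 1124 on the C array and 1500 and 1715 on the RS array, so that the spots did not overlap. After normalization this was 1.64-fold, or 0.71 on the log2 scale (spot error 0.14). The probe lies at chr1:187804666-187804725 (forward strand). Among all genes, Bag3 ranked 1283 of 21086.

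Hspb1, which encodes the small heat shock protein HSP27, was the second in size among the 10 genes. Its probe was printed in 10 spots and lies across 171 bases of chromosome 12, from 21911494 to 21911664 on the reverse strand. The spots ran from 99.9 to 131, with a median of 128, on the C array and from 209 to 241, with a median of 228, on the RS array. The spots of both arrays did not overlap. After normalization this was 1.97-fold, or 0.97 on the log2 scale (spot error 0.065), and Hspb1 ranked 763 among all genes. It was just under the 2-fold threshold, and with the median of all probes as the scale it was just past it.

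The mitochondrial chaperonin pair differed least. Hspd1 was printed in 10 spots of its brightest probe, at chr9:53884211-53884270 (reverse strand), with intensities from 5266 to 5797 on the C array and from 5250 to 6105 on the RS array. They differed by 0.14 on the log2 scale (spot error 0.065). After normalization the spots of this probe overlapped between the arrays. The other Hspd1 probes, at positions 1168 and 1689, gave log2 differences of -0.0041 and 0.11, and the first of these was the only 1 of the 18 probes with a difference that lay below 0. The probe at position 1689 shares at least 20 bases in a row with probes of 2 other transcripts, 1 of them named Hspd1-ps6. Its 2 spots overlapped between the arrays before normalization but not after it. By probe, 17 of 18 lay above 0, beside 52.9% of all probes with a difference.

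Hspe1, from the same promoter region, was measured by 2 probes of 10 spots each that share 15 bases. The brightest, at 53898351 to 53898410 of chromosome 9 (forward strand), had spots from 9563 to 10521 on the C array and from 9969 to 11154 on the RS array. They differed by 0.21 on the log2 scale (spot error 0.065). The other probe, with 8 and 9 of its spots used, gave 0.17 (spot error 0.070). After normalization the spots of the arrays did not overlap for either Hspe1 probe. For the brightest probe, the highest C spot was at 5.80 and the lowest RS spot at 5.82. Before normalization the spots of the brightest probe overlapped, so that their separation depends on the scaling. How many other probes printed 10 times were separate was not counted. Across the 9 genes, 5 exceeded 0 by more than 2 spot errors, namely Hspa1a, Hspb1, Bag3, Hspd1 and Hspe1, compared with 10.6% of all genes. The spot error shrinks with the number of spots. Hspd1 and Hspe1, read from 10 spots, thus passed with smaller differences than Hsp90aa1, Hsph1 and Dnajb1, each read from 1 spot. Of all genes, 32.4% had a difference as high as that of Hspd1 or higher, and 25.2% as that of Hspe1. Without normalization Hspd1 was at 0.046 and Hspe1 at 0.11, both under 2 spot errors.

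**Figure D3:**
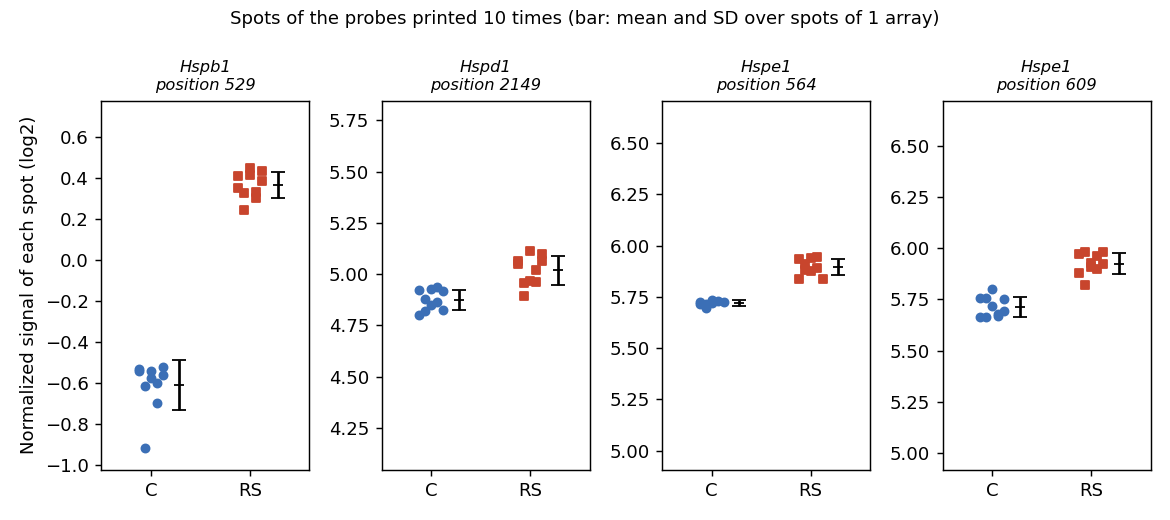
Normalized log2 signal of each spot on the C array (circles) and the RS array (squares) for the 4 heat shock probes printed 10 times; bars are the mean and SD over the spots of 1 array, and every panel spans the same range. The Hspb1 spots lie furthest apart, the Hspe1 spots are separate by a narrow gap, and the Hspd1 spots overlap.

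Hsp90aa1, the stress-related form of cytosolic HSP90, carried 3 probes. The brightest, at position 436 of the transcript and chr6:135417971-135418030, read 11799 in C and 14302 in RS, or 0.38 on the log2 scale (spot error 0.20). The probe at position 2712 went from 6820 to 8841, or 0.47. Both lie on the reverse strand of chromosome 6. The third probe, on the same chromosome from 135413903 to 135413962, was placed by the files on the forward strand, opposite to the other probes of the gene. It read 29.7 in C and 87.5 in RS, or 3.15-fold (1.66 on the log2 scale, spot error 0.23). It was designed from a cDNA end read, and it measures RNA of the strand opposite to Hsp90aa1 if the files' placement is right. For the 14 probes of the other genes with a strand in both sources, the strand in the files was that of RefSeq in 14. By probe, 3 of 18 were past 2-fold higher, compared with 3.30% of all probes with a difference, and these were both Hspa1a probes and this one.

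**Figure D4:**
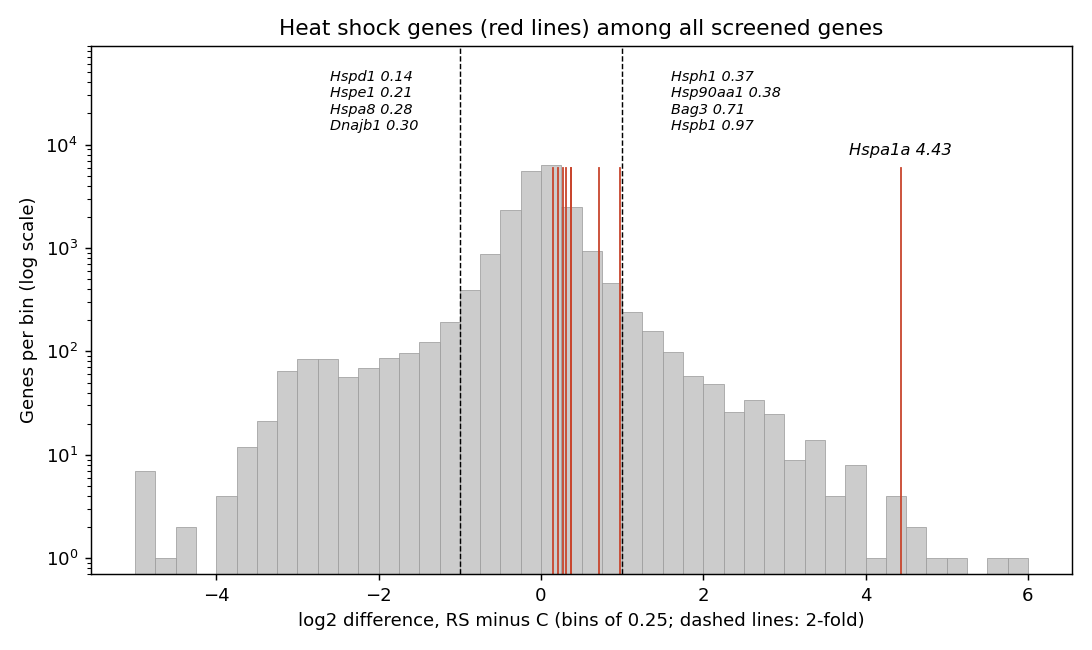
Distribution of the log2 difference (RS minus C, bins of 0.25) over 21086 genes, with the number of genes on a log axis and the 9 heat shock genes with a difference as red lines. Hspa1a, at 4.43, stands far to the right, and the other 8 lie between 0.14 and 0.97, inside the dashed 2-fold lines; the lowest bin also holds the 4 genes below its lower edge.

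The rest of the chaperone system was described by 10 lists with 121 genes, of which 111 were screened. Higher by 2-fold or more were 4 of them, Hspb8, Cryab, Dnajc28 and Hsf4, and none was lower by 2-fold or more. Their median log2 difference was 0.13, and 83 of 111 lay above 0, beside 52.1% of all genes. The share past 2-fold, 4 of 111, stood beside 3.46% of all genes.

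The genes past 2-fold were of different kinds. Hspb8 and Cryab encode small heat shock proteins, and HSPB8 is the partner of BAG3. Hspb8 went from 21.96 to 51.8 in intensity (log2 difference after normalization 1.34, spot error 0.25), and Cryab from 198 to 393 (1.09, spot error 0.20). Of the 6 small heat shock genes screened, Hspb2, Hspb6, Hspb11 and Cryaa lay below 0, with Cryaa lowest at -0.41, and the list's median was -0.08. The second Hspb2 probe lay above 0, at 0.20. Dnajc28, a J-domain protein, was at least 2.13-fold higher and Hsf4 at least 2.09-fold, both dim and above background on the RS array only, with spot errors of 0.54 and 0.50.

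Of the J-domain co-chaperones, 26 of 33 lay above 0, with a median of 0.15. Dnaja1 had a log2 difference of 0.80 and Dnajb4 of 0.59, and the lowest was Dnajc14 at -0.45. The HSP90 list had a median of 0.13 over 20 genes. It ran from -0.26 for Hsp90b1, the HSP90 of the endoplasmic reticulum, to 0.76 for Fkbp5, a co-chaperone that is also a known target of the glucocorticoid receptor. Hsp90ab1, the constitutive cytosolic form, was at 0.09.

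The other HSP70 and HSP110 genes had a median of 0.02 over 9 genes, from -0.22 for Hspa12b to 0.42 for Hspa5. The nucleotide exchange factors had a median of 0.08 over 9 genes, from -0.16 for Bag6 to 0.29 for Bag2. The chaperonin CCT and prefoldin list had a median of 0.15 over 13 genes, from -0.06 for Cct7 to 0.29 for Tcp1, and mitochondrial proteostasis 0.07 over 7 genes, from -0.36 for Spg7 to 0.20 for Htra2. None of these 4 lists held a gene past 2-fold.

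The factors that drive the response were also measured. Hsf1, the main heat shock factor, had a log2 difference of 0.07, and its probes lay on both sides of 0, at -0.07 and 0.07. Hsf2 was at 0.80 with a spot error of 0.21, and Hspbap1 was lowest of its list at -0.32. Among further genes known to be raised by heat or damaged proteins, the median was 0.18, with Hmox1 highest at 0.95, Serpinh1, which encodes the collagen chaperone HSP47, at 0.63, and Ubb lowest at -0.06. Of the RNA-binding genes known to rise with cooling, Cirbp was at -0.53, with its 3 probes between -0.53 and -0.12, and Rbm3 at 0.11.

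**Figure D5:**
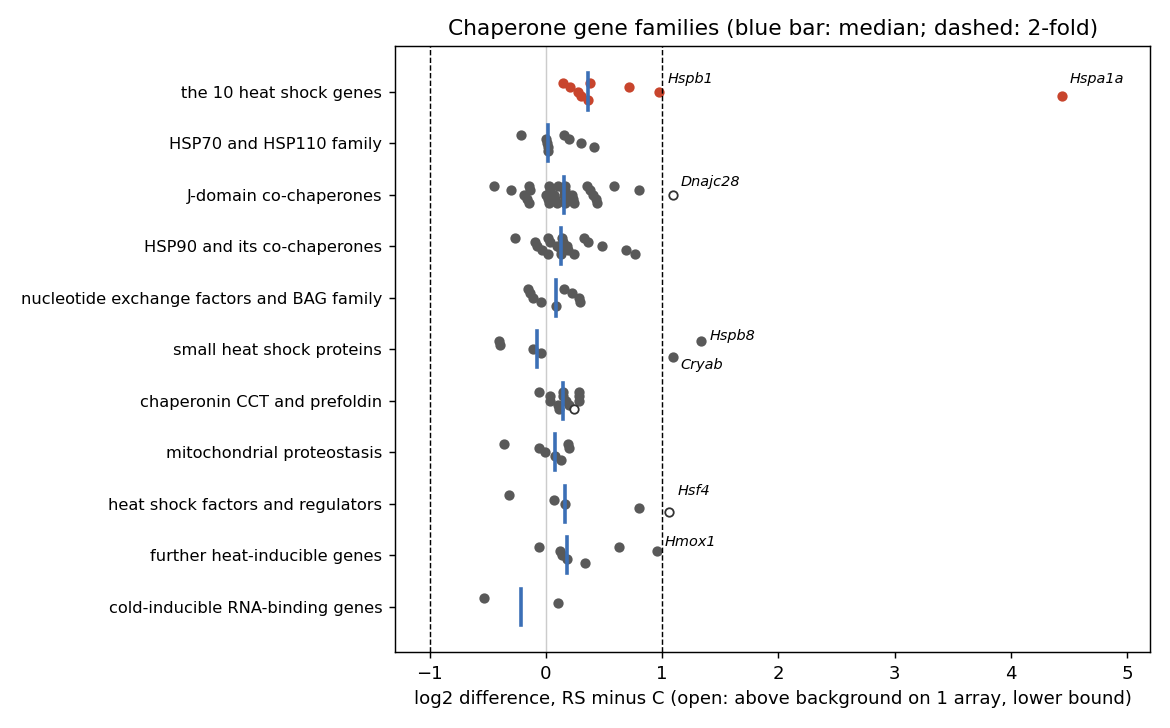
Log2 difference (RS minus C) of each screened gene in the 10 heat shock genes and in 10 further lists of the chaperone system, with the median of each list as a blue bar and 2-fold as dashed lines; open circles are lower bounds. Only Hspa1a lies beyond 4, and 4 genes of the other lists lie between 1.06 and 1.34.

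A run of 3 units in the promoter window was found for 4 of the 102 other chaperone genes with a window, or 3.92%. These were Dnaja1, Serpinh1, Chordc1 and Cct4, with log2 differences of 0.80, 0.63, 0.48 and 0.17. With Hspa8, Hsph1, Hspd1 and Hspe1, all 8 chaperone genes that held a run lay above 0 and under 2-fold. Beside this count, 83 of the 111 other chaperone genes lay above 0 with or without a run, as did 58.8% of all screened genes with a run and 53.0% of all screened genes with a window. Hspa1a held none in its window, and whether that window covers its promoter was not examined.

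Genes of other cells and tissues differed between the arrays as well. In bulk tissue, a change in the number of cells of a type and a change in RNA per cell cannot be told apart. Of the erythrocyte genes, 7 of 7 screened were higher by 2-fold or more, and their intensities summed to 10236 in C and 57588 in RS. All sums here and in the next paragraph are before normalization, with a 75th percentile of 189 in C and 176 in RS. Slc4a1 and Epb42 were above background on neither array. Of the fat genes, 7 of 9 were higher by 2-fold or more, with sums of 6724 and 16418, and Plin1, Ucp1 and Pck1 were not above background. Of the neutrophil genes, 2 of 8 were, S100a8 and S100a9, with sums of 370 and 1124 over the 8, and Ngp and Camp were not above background. Within these sums, S100a8 went from 19.3 to 286 and S100a9 from 36.3 to 464. The other 6 neutrophil genes lay between -0.41 for Mmp8 and 0.73 for Cxcr2. Cxcr2 was well above background on the RS array only (spot error 0.43), and its other probe lay at 0.53. The part of these genes in the differences of Hspa1a, Hspb1, Hspb8 and Cryab was not tested.

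Skeletal muscle had 0 of 8 genes past 2-fold and sums of 309 and 298, with Ckm, Myh2 and Myh4 not above background. The lymph node genes, 12 screened of 13 listed, had 0 past 2-fold in either direction and sums of 51809 and 43134. The gene not screened, Cd79a, had no probe under its name. Macrophage genes had 0 of 10 past 2-fold, endothelial genes 1 of 10, Emcn, and salivary gland genes 0 of 2, with 6 further salivary genes not above background.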

How the data were processed

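Cy3-labeled RNA was hybridized by the authors to Agilent SurePrint G3 Rat GE arrays, whose spots they read out with Feature Extraction 11.5.1.1. They deposited spot intensity values, background-subtracted within each array, and a table of log2 values. Set against the scanner values, 100% of the table's values for 45598 probes lay within 0.1, so it holds log2 intensity minus the 75th percentile. The file headers give 1 slide and 1 scan time for both arrays.

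Control spots and outlier spots (489 on the C array, 660 on the RS array) were left out, log2 intensities were averaged per probe, and the 75th percentile of the array (an intensity of 189 and 176) was subtracted, as in the study's methods. A probe was well above background if over 50% of its spots carried that mark, as for 54.7% and 54.9% of probes, and none was saturated. A gene was represented by its brightest probe on average, and was screened if this probe passed on 1 array or both. Where it passed on 1 array only, the difference is a lower bound against the higher of the dim signal and the array's lowest signal well above background. The number of arrays limits the precision, and no p-value was computed.

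Genes named were the 10 members with all probes, other chaperone genes past 2-fold, the extremes of each list, Hsf1, Hsf2, Cirbp and Rbm3. Dnaja1, Dnajb4, Hsp90ab1, Chordc1, Cct4 and Serpinh1, the further small heat shock genes and marker genes were named after their values were seen. The members and lists were chosen with earlier results of these data known. Of the 121 other chaperone genes, 119 had a probe under their name. The steps were tested on simulated data in which both arrays carried the same background marks, so that the lower-bound step was not exercised. Calculations used Python 3.11.15, numpy 2.4.6, pandas 2.3.3, R 4.3.3 and limma 3.58.1; figures used matplotlib 3.10.9.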

Additional observations from a re-analysis of the deposited data

How the results depend on the processing

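No paired analysis was possible because C and RS had a single array each, and no replicate could be left out. The 10 alternatives (4 other scalings, normexp, the deposited table, the mean over probes, outlier spots kept, and 2 other filters) gave 90 values for the 9 genes with a difference, of which 82 moved by less than the spot error and 0 lay below 0. The number of the 10 genes higher by 2-fold or more was 1, but 2 with the median of all probes, where Hspb1 just passed 2-fold. The number of other chaperone genes higher by 2-fold or more was 4, but 1 without normalization, 0 with normexp and 2 with genes above background on both arrays only. The share of all genes higher by 2-fold or more was 3.46%, and 2.99%, 1.11% and 2.57% under these 3 settings. Normexp adds an offset to all signals, and the last setting drops Dnajc28 and Hsf4 by construction. Hspa1a reached at most 4.46, and it was lowest at 3.16 with the mean over its probes, a lower bound because the second probe's value is one. Hsp90aa1 was at 0.84 with the mean over its probes, which includes the probe on the opposite strand. Hspb1 was at 0.72 with normexp and 0.88 without normalization. Hspa1b, not above background on either array, had a value only without a filter, where it entered the median of the 10 genes (0.33) and lay at 0.0032. With intensities this low for the second Hspa1a probe, Dnajc28 and Hsf4, their sizes are bounds only, and the spot errors cover neither rats nor hybridizations.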

Other observations

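Over all screened genes with a RefSeq promoter window under the same symbol, 51 of 10264 held a run of 3 heat shock units. Their median log2 difference was 0.02, as it was for all 10264 genes. Higher by 2-fold or more were 4 of the 51 (7.84%), compared with 3.75% of the 10264. Of the 51 genes, 58.8% lay above 0, compared with 53.0% of the 10264. These values are a description of 2 arrays, and a run of letters in a window is not evidence that a factor binds there.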
